A study of Mus musculus with 3 samples.

Results

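The genes of an enteroendocrine transcription factor cascade were followed in mouse small intestinal organoids: Neurog3, Neurod1, Pax4, Nkx2-2, Isl1, Insm1, Rfx6, Fev and Etv1. They were chosen by name, and all 9 members are among the 23271 gene symbols of the merged single-cell table. Organoids grown from crypts of C57BL/6 mice aged 3 to 6 months were profiled by Seq-Well, a nanowell method that tags each transcript with a cell barcode and a unique molecular identifier (UMI). All cultures began as one stem-cell-enriched culture of a single donor, and each condition is 1 library, from 1 array and 6 pooled wells. ENR medium holds the growth factors EGF, Noggin and R-spondin 1 and gives conventional organoids with all epithelial lineages. ENR+CD adds CHIR99021 at 3 µM, a GSK3 inhibitor that drives Wnt signalling, and DAPT at 10 µM, a γ-secretase inhibitor that blocks Notch, and is labelled Paneth cell (PC) enriched. ENR+CV adds the same CHIR99021 and valproic acid at 1 mM, a histone deacetylase inhibitor, and is labelled intestinal stem cell (ISC) enriched. ENR and ENR+CD cultures were differentiated for 6 days from the ENR+CV state, so the precursor culture had met CHIR99021 and valproic acid in all 3 groups.

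Enteroendocrine cells (EECs) are the hormone-secreting cells of the gut epithelium. Notch signalling between neighbouring crypt cells holds back the secretory fates, and cells that escape it can switch on Neurog3, a basic helix-loop-helix factor required for nearly all EECs and expressed only transiently. Neurog3 is followed by Neurod1, Pax4, Insm1, Nkx2-2, Rfx6, Isl1, Fev and Etv1, which act in EEC maturation or in the choice of hormone. Chgb encodes chromogranin B, a protein of the hormone granule and so a product of maturing EECs.

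After cells of 1000 or more and under 8000 UMIs with at least 400 genes were kept, the ENR library held 2545 cells and 5095089 UMIs, the ENR+CD library 2383 cells and 4538388 UMIs, and the ENR+CV library 985 cells and 2942252 UMIs. Median depth was 1553, 1543 and 2499 UMIs per cell in that order. The column names of the merged table match the samples' source names and set the groups here. The separate per-library tables attached to ENR+CD and ENR+CV are exchanged relative to those names: the table attached to ENR+CV held 2506 of 2506 cells identical to the merged ENR+CD columns. With groups set by the column names, Lyz1, the lysozyme gene that defines PCs, stood at 13989 CPM in the library labelled PC enriched and at 885 CPM in the one labelled ISC enriched. The mitochondrial share of UMIs was 16.5% in ENR, but 8.67% in ENR+CD and 3.89% in ENR+CV. Only 1 cell barcode was shared between the kept cells of ENR and ENR+CD, and 0 between the other pairs. Levels are given as CPM, the gene's UMIs scaled to the library's total, a UMI being counted once per transcript whatever its length. Their exact 95% Poisson intervals, like all intervals here, cover counting error only. Each condition being 1 library, no difference has a replicate check or a p-value.

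The windows before the start sites of the first factor, the factor with most UMIs and the granule gene show the sequence context of the 3 genes on which the early and late readings below turn. They are the 250 bases before the RefSeq start (GRCm38.p6), 5′ to 3′ on the gene's own strand. Capitals mark CANNTG, the E-box bound by basic helix-loop-helix factors such as Neurog3 and Neurod1, and TGACGTCA, the cyclic AMP response element, which does not overlap an E-box in these windows. Both motifs read the same on either strand.
Neurog3 (chr10:62132840-62133089, plus strand): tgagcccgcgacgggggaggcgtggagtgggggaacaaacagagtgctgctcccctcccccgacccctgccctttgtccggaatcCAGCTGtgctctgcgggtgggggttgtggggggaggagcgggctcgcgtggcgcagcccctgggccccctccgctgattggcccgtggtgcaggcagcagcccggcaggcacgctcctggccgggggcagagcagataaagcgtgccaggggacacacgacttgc
Neurod1 (chr2:79456637-79456886, minus strand): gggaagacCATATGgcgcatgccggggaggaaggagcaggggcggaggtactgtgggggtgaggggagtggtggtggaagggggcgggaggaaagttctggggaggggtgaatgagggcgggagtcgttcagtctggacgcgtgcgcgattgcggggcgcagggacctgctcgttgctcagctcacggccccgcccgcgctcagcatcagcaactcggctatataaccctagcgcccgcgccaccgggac
Chgb (chr2:132781392-132781641, plus strand): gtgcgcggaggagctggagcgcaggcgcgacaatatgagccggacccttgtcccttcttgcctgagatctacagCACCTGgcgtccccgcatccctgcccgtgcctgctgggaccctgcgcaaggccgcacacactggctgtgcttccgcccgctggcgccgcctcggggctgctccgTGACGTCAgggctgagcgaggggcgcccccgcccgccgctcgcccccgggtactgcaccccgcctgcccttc
Neurog3, Neurod1 and Chgb each held 1 E-box, and Chgb also held 1 cyclic AMP response element. An E-box was present in 66.2% of 32851 promoter windows of that length and the cyclic AMP response element in 1.55%, so the E-box matches are common letters. Of the 9 factors, 7 had a RefSeq window, 5 of these held an E-box in at least 1 window and 0 held the cyclic AMP response element. The factors lie on 6 chromosomes that include chromosome 2 (Neurod1, Nkx2-2 and Insm1) and chromosome 10 (Neurog3 and Rfx6). In the GENCODE annotation of GRCm38 the Neurog3 span, 62133090 to 62134763 on chromosome 10, is overlapped on the opposite strand by Fam241b, which the deposited table lists as 2010107G23Rik with 123, 144 and 73 UMIs in ENR, ENR+CD and ENR+CV. Neurod1 overlaps Cerkl on the same strand, with 2, 25 and 4 UMIs, and whether counting used strand is not given in the sources used here, so reads of these pairs may be shared.

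Neurog3, the factor that starts the cascade, was highest in ENR+CD. In ENR it gave 98 UMIs, in ENR+CD 441 and in ENR+CV 86, or 19.2 CPM (15.6 to 23.4), 97.2 CPM (88.3 to 107) and 29.2 CPM (23.4 to 36.1). The 3 intervals stood in the order ENR, ENR+CV, ENR+CD, with a narrow overlap between ENR and ENR+CV and with ENR+CD above both. Neurod1, a basic helix-loop-helix factor that follows Neurog3, gave 147, 550 and 44 UMIs, or 28.9 CPM (24.4 to 33.9), 121 CPM (111 to 132) and 15.0 CPM (10.9 to 20.1). Its lowest library was ENR+CV, not ENR, and no intervals overlapped. Neurod1 was the highest of the 9 factors in ENR and ENR+CD, and Neurog3 the highest in ENR+CV.

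**Figure D1:**
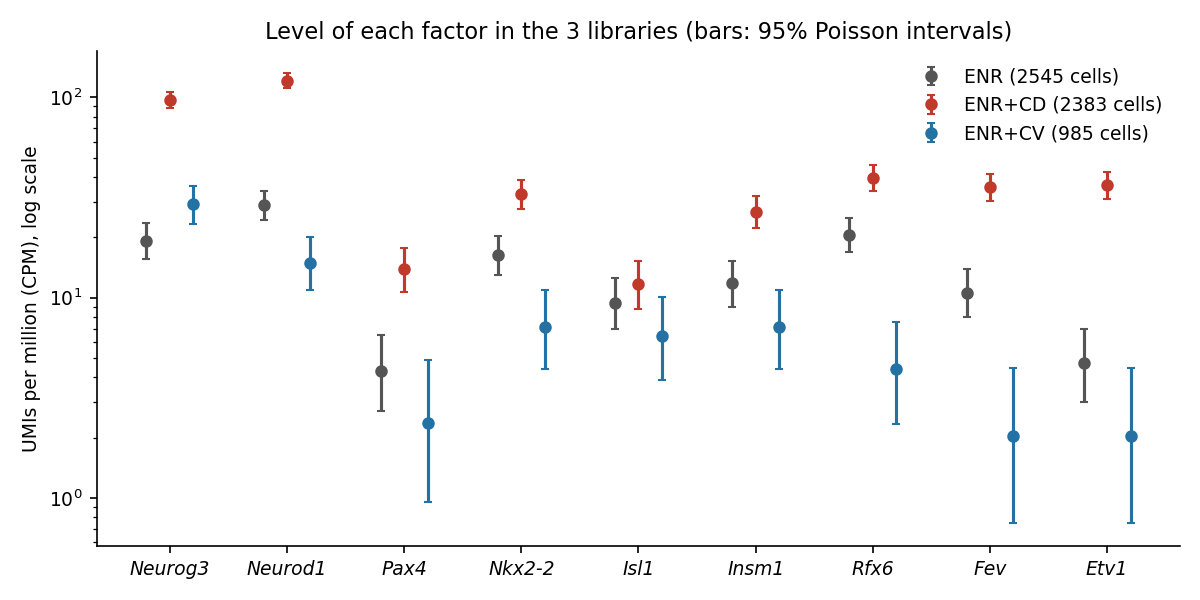
CPM of each factor (log scale) in ENR, ENR+CD and ENR+CV, 1 library each, with 95% Poisson intervals as bars. ENR+CD holds the highest point for all 9 factors, and Neurog3 is the factor whose ENR+CV point (29.2 CPM) lies above its ENR point (19.2 CPM).

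Among the factors of early commitment, Pax4, a paired homeobox repressor that steers hormone choice, was the scarcest in ENR with 22 UMIs, against 63 in ENR+CD and 7 in ENR+CV. These were 4.32 CPM (2.71 to 6.54), 13.9 CPM (10.7 to 17.8) and 2.38 CPM (0.957 to 4.90). Insm1, a zinc finger factor of endocrine and neuroendocrine cells, gave 60, 122 and 21 UMIs, or 11.8, 26.9 and 7.14 CPM. For both factors ENR+CD stood apart, while the ENR and ENR+CV intervals overlapped. Nkx2-2, a homeobox factor that shapes the balance of hormones, gave 83, 149 and 21 UMIs, or 16.3, 32.8 and 7.14 CPM. Its 3 intervals did not overlap.

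Rfx6, a winged-helix factor of EEC and islet development, gave 105, 179 and 13 UMIs, or 20.6 CPM (16.9 to 24.95), 39.4 CPM (33.9 to 45.7) and 4.42 CPM (2.35 to 7.56). Isl1, a LIM homeobox factor of several hormone cells, was the most even with 48, 53 and 19 UMIs. Its 9.42 CPM (6.95 to 12.5), 11.7 CPM (8.75 to 15.3) and 6.46 CPM (3.89 to 10.1) had intervals that overlapped between every pair of libraries. Fev, an ETS factor of the serotonin-producing lineage, gave 54, 161 and 6 UMIs, or 10.6, 35.5 and 2.04 CPM. Etv1, an ETS factor, gave 24, 165 and 6 UMIs, or 4.71 CPM (3.02 to 7.01), 36.4 CPM (31.0 to 42.4) and 2.04 CPM (0.748 to 4.44). By level, Etv1 was above Pax4 alone in ENR, while in ENR+CD it stood after Neurod1, Neurog3 and Rfx6. From Rfx6 down through Etv1, Fev and Nkx2-2 to Insm1, no factor in ENR+CD was separated from the next beyond counting error. In ENR no factor was separated from the next in rank.

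The comparison of ENR+CD with ENR sets the medium with CHIR99021 and DAPT beside the medium without them. A gene was called where CPM differed at least 2-fold, the Poisson intervals were separate and the pair held at least 20 UMIs. By this rule 7 of 9 factors were higher in ENR+CD and 0 lower, against 10.8% of all 12197 genes higher and 9.35% lower. Etv1 differed most, at 7.72 times its ENR level (5.01 to 12.4), followed by Neurog3 at 5.05 (4.05 to 6.35) and Neurod1 at 4.20 (3.50 to 5.07). Fev was at 3.35 times (2.44 to 4.64), Pax4 at 3.22 (1.95 to 5.49) and Insm1 at 2.28 (1.66 to 3.16). Nkx2-2 passed the 2-fold limit narrowly at 2.02 (1.53 to 2.67), and Rfx6 missed it narrowly at 1.91 (1.496 to 2.46). Isl1 was at 1.24 times (0.823 to 1.87) and was not called. Chgb was at 2.35 times (2.28 to 2.42), below the intervals of Neurog3, Neurod1, Fev and Etv1. The median of the 9 log2 ratios was 1.69, against -0.01 over all genes tested. The cells of ENR+CD carried more PC markers than those of ENR, 14.3% against 3.44% of UMIs. Scaled to UMIs outside PC genes Rfx6 was also called, which gave 8 factors, and scaled to UMIs outside mitochondrial genes Nkx2-2 lost its call, which left 6.

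Taking CHIR99021 with valproic acid against ENR, the factors other than Neurog3 had lower point values. None of the 9 was called higher and 3 were called lower, against 15.9% of all 11962 genes higher and 5.80% lower. Fev was at 0.192 times its ENR level (0.0676 to 0.447), Rfx6 at 0.214 (0.111 to 0.383) and Nkx2-2 at 0.438 (0.258 to 0.714). The ratio of Neurod1 was 0.518 (0.361 to 0.730), just short of the 2-fold limit. The intervals of Pax4, Isl1, Insm1 and Etv1 included 1, with 6 to 21 UMIs each in ENR+CV, and a difference was not detectable at this depth. Neurog3 was at 1.52 times (1.12 to 2.05), above its ENR level but not called. The median gene lay 0.35 higher on the log2 scale in ENR+CV, and centred on it 5 factors were called lower. By the mean of the cells' own CPM 2 were (Rfx6 and Fev), and with cells of 2000 UMIs or more left out 2 were (Isl1 and Rfx6), so the calls of Nkx2-2 and Fev do not hold throughout. Chgb was at 0.0605 times its ENR level (0.0529 to 0.0688), an interval that overlapped that of Fev alone among the factors.

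Between the 2 CHIR99021 media, 8 of 9 factors were higher in ENR+CD than in ENR+CV and 0 lower, against 7.10% of all 12099 genes higher and 18.9% lower. This comparison shares its libraries with the other 2 and is not independent of them. Etv1 was at 17.8 times (8.02 to 49.3) and Fev at 17.4 (7.82 to 48.1), each resting on 6 UMIs in ENR+CV. Rfx6 was at 8.93 times (5.09 to 17.1), Neurod1 at 8.10 (5.96 to 11.3), Pax4 at 5.83 (2.67 to 15.1), Nkx2-2 at 4.60 (2.90 to 7.65) and Insm1 at 3.77 (2.36 to 6.30). Neurog3 had the smallest ratio of the called factors, at 3.32 times (2.63 to 4.24), and Isl1 was at 1.81 times (1.05 to 3.24) and not called. Chgb was at 38.9 times (34.2 to 44.4).

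**Figure D2:**
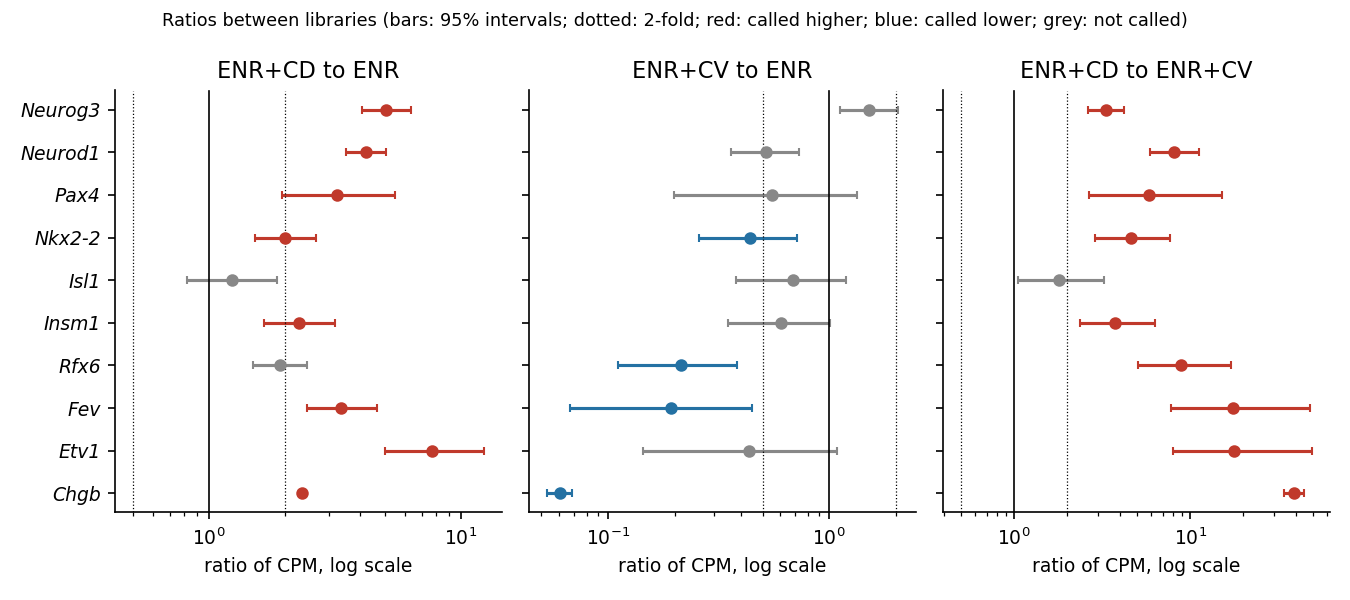
Ratio of CPM between each pair of libraries (log scale) for the 9 factors and Chgb, with 95% intervals from the UMI counts; dotted lines mark 2-fold, and colours mark the called genes. In ENR+CD against ENR the 7 called factors lie between 2.02 and 7.72, while in ENR+CV against ENR only Neurog3 (1.52) has a ratio above 1.

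Other genes of the pathway were taken from 3 lists. Of 11 other endocrine factors, 10 had enough UMIs in ENR+CD and ENR, and 5 were higher and 0 lower, beside the 10.8% and 9.35% of all genes, with a median log2 ratio of 1.14. Runx1t1, a transcriptional corepressor, was at 5.94 times its ENR level in ENR+CD (4.03 to 9.02), St18, a zinc finger factor, at 2.94 (2.14 to 4.09) and Foxa1, a forkhead factor, at 2.74 (2.08 to 3.63). Foxa2 was at 1.24 times (0.916 to 1.69) and not called. In ENR+CV against ENR 9 of these genes had enough UMIs, 1 was higher (Foxa1, 2.15 times) and 3 were lower, beside 15.9% and 5.80% of all genes. The 1 higher gene is no more than that background.

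Of 12 secretory fate and Notch genes, 11 had enough UMIs in ENR+CD and ENR, and 3 were higher and 0 lower, beside 10.8% and 9.35% of all genes. Hes1, the Notch target that represses the secretory fate, was at 0.675 times its ENR level in ENR+CD (0.597 to 0.762), not enough for a call, and at 4.70 times in ENR+CV (4.31 to 5.13). Sox4, which marks secretory and EEC precursors, was at 2.32 times in ENR+CD (2.14 to 2.52) and 2.59 times in ENR+CV (2.37 to 2.82). Sox9, a factor of crypt base and Paneth cells, and Cdkn1a, a cell cycle inhibitor, were called in neither. Sox4 was thus called higher in both CHIR99021 media, whereas 0 of the 9 factors were.

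Of 22 endocrine granule and hormone genes, the ratio of ENR+CD to ENR put 12 above the limit and 2 below it, beside 10.8% and 9.35% of all genes. Sct, encoding secretin, was at 14.3 times (13.0 to 15.9) and Gcg, encoding proglucagon, at 2.53 times (2.40 to 2.67). Cck, encoding cholecystokinin, was at 1.66 times (1.58 to 1.73) and not called. In ENR+CV, of the 19 such genes with enough UMIs, 15 were lower relative to ENR and 0 higher, beside 5.80% and 15.9% of all genes. Their median log2 ratio was -4.05, against -0.95 for the 9 factors. Cck gave 2 UMIs and Gcg 1 UMI in all of ENR+CV, against 3083 and 1990 in ENR, while Sct gave 81 against 420.

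More cells held a factor in ENR+CD, whatever the depth. After each cell was thinned to 1000 UMIs, 7.74% of ENR cells (6.73 to 8.85%), 26.1% of ENR+CD cells (24.4 to 27.9%) and 2.34% of ENR+CV cells (1.49 to 3.48%) held at least 1 UMI of the 9 factors (Clopper-Pearson intervals). Without thinning the shares were 11.6%, 36.3% and 4.67%. Neurog3 was seen after thinning in 1.49% of ENR cells (1.06 to 2.04%), 6.80% of ENR+CD cells (5.82 to 7.88%) and 0.914% of ENR+CV cells (0.419 to 1.73%). Its ENR+CV share was thus not above its ENR share, although its CPM was. Cells rich in markers of other lineages also held it. In ENR+CD it was in 4.57% (2.11 to 8.495%) of 197 cells rich in PC markers, at a median depth of 1916 UMIs. In ENR it was in 2.74% (0.751 to 6.87%) of 146 cells rich in enterocyte markers, at a median depth of 1547 UMIs. These groups are parts of the same libraries, cut after the data were seen, and give no background share. They held 9 positive cells in ENR+CD and 4 in ENR. Their wide intervals overlapped those of the libraries, so no difference in share was separated. By CPM the PC-rich cells held less Neurog3 than their library, 51.2 (32.4 to 76.8) against 97.2. The enterocyte-rich ENR cells did not, at 26.5 (11.5 to 52.3) against 19.2. The cut on PC markers by itself lowers the CPM of other genes in the PC-rich cells, and its part was not tested. Over all kept cells of ENR, ENR+CD and ENR+CV, Neurod1 was seen after thinning in 2.12%, 9.06% and 1.42%, and Etv1 in 0.354%, 3.40% and 0.102%. As whole-library CPM, fewer cells with a factor and fewer transcripts per such cell cannot be told apart, and the counts per cell below separate them in part.

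In ENR+CV the factor transcripts sat in few cells. The 10 cells with most factor UMIs held 74.9% of the 223 factor UMIs of ENR+CV, 24.96% of the 641 of ENR and 12.7% of the 1883 of ENR+CD. The 15 ENR+CV cells with Neurog3 carried 5.73 UMIs of it on average, against 1.56 over 63 ENR cells and 1.79 over 246 ENR+CD cells, and their median depth was 2782 UMIs against 1793 and 1726. The most Neurog3 UMIs in 1 cell was 7 for ENR, while it was 32 for ENR+CD and 19 for ENR+CV. A single ENR+CV cell thus held 22.1% of that library's Neurog3 UMIs, and 5 cells held 72.1%. The richest ENR+CV cell carried 8 of the 9 factors, with 8 Isl1, 7 Nkx2-2, 6 Neurog3 and 6 Neurod1 UMIs but 0 of Chgb. Of its 10 richest cells 9 held no Chgb UMI, whereas in ENR and ENR+CD 9 and 10 of the 10 richest cells held Chgb.

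**Figure D3:**
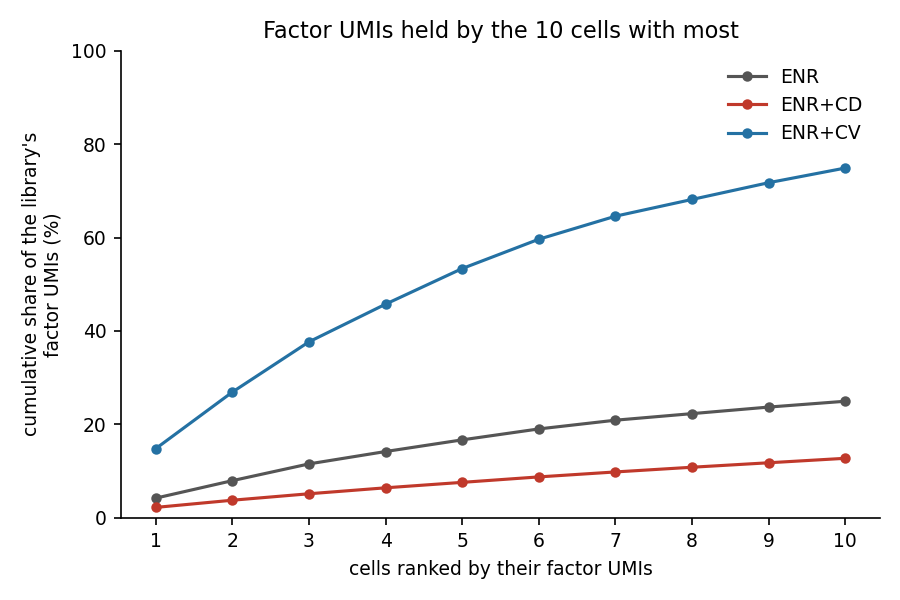
Cumulative share of a library's factor UMIs (y axis, percent) held by the 10 cells with most factor UMIs (x axis, rank), for ENR, ENR+CD and ENR+CV. The ENR+CV line reaches 74.9%, the ENR line 24.96% and the ENR+CD line 12.7%.

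Whether factors shared cells depended on the pair and the library, and most positive cells showed 1 factor at this depth. In ENR 24.8% of the 294 positive cells held 2 or more factors, in ENR+CD 30.3% of 864 and in ENR+CV 37.0% of 46, before thinning. After thinning, Neurod1 was found in 10.5% of the 38 ENR cells with Neurog3 (2.94 to 24.8%) and in 1.99% of cells without it. In ENR+CD these shares were 17.3% of 162 cells (11.8 to 24.0%) and 8.46%, and in ENR+CV 66.7% of 9 cells (29.9 to 92.5%) and 0.820%. Over the 8 other factors, the share in thinned cells with Neurog3 lay above that in cells without it, beyond its interval, for 6 in ENR, 2 in ENR+CD (Neurod1 and Fev) and 7 in ENR+CV. In ENR+CD the other 6 were not separated, among them Etv1, in 3.70% of 162 cells with Neurog3 (1.37 to 7.89%) against 3.38% of the others. The ENR+CV count rests on 9 cells with Neurog3, and Pax4 and Fev each passed there on 1 cell. The shares in cells without Neurog3 also differ between libraries, so these counts do not rank the libraries. Beside Neurod1, Etv1 was seen in 7.41% of 54 thinned ENR cells (2.06 to 17.9%) against 0.201% of the others, and in 10.6% of 216 ENR+CD cells (6.87 to 15.6%) against 2.68%. Before thinning, positive cells were deeper than others, at a median of 1729 against 1534 UMIs in ENR, 1667 against 1478 in ENR+CD and 3030 against 2423 in ENR+CV.

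By UMIs, though not clearly by cells, the balance of early and late factors differed between media. Neurog3 gave 0.667 UMIs per Neurod1 UMI in ENR (0.511 to 0.867), 0.802 in ENR+CD (0.706 to 0.911) and 1.95 in ENR+CV (1.34 to 2.88). The ENR and ENR+CD intervals overlapped and the ENR+CV interval lay above both. These intervals take UMIs as independent, while a single ENR+CV cell held 19 of the 86 Neurog3 UMIs. Counting each cell once gave 0.833 in ENR+CV, a value that rests on 15 cells with Neurog3 and 18 with Neurod1. The cells with Neurog3 and with Neurod1 were 63 and 88 in ENR and 246 and 332 in ENR+CD. By cells, the count for Neurod1 was thus above that for Neurog3 in every library, though the 18 and 15 cells of ENR+CV are too few to separate them. Neurog3 made up 15.3% of all factor UMIs in ENR (12.6 to 18.3%), 23.4% in ENR+CD (21.5 to 25.4%) and 38.6% in ENR+CV (32.1 to 45.3%). Etv1 made up 3.74% in ENR (2.41 to 5.52%) and 8.76% in ENR+CD (7.52 to 10.1%), and Isl1 7.49% (5.57 to 9.81%) and 2.81% (2.11 to 3.67%). Against Chgb, Neurog3 gave 0.0143 UMIs per Chgb UMI in ENR, but 0.0308 in ENR+CD and 0.360 in ENR+CV (0.278 to 0.462).

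Neurod1, Fev and Etv1 stood in Chgb-rich cells more than Neurog3 did in ENR, while in ENR+CD the factors differed less and their order depended on the Chgb limit. Cells were classed by their Chgb UMIs among 1000 drawn UMIs, a range and not a cell type. In ENR, cells with 0, 1, 2 to 4 and 5 or more Chgb UMIs (1834, 354, 240 and 117 cells) had Neurog3 at 12.1, 34.1, 30.3 and 72.5 CPM and Neurod1 at 13.1, 24.8, 45.5 and 254 CPM. Both were higher in the last class than in the first, Neurog3 going from 12.1 (8.85 to 16.1) to 72.5 (42.9 to 115) and Neurod1 from 13.1 (9.75 to 17.3) to 254 (195 to 325). Etv1 went from 1 UMI in the cells without Chgb, 0.263 CPM (0.00665 to 1.46), to 56.4 CPM (30.8 to 94.6). The number of Neurog3 UMIs per Neurod1 UMI was 1.03 below 2 Chgb UMIs (0.723 to 1.47) and 0.370 at 2 or more (0.235 to 0.569).

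In ENR+CD the classes held 673, 420, 850 and 440 cells, and Neurog3 stood at 64.5, 56.5, 90.1 and 204 CPM against 51.5, 74.9, 118 and 292 for Neurod1. Neurog3 per Neurod1 UMI was 1.04 below 2 Chgb UMIs (0.811 to 1.33) and 0.727 at 2 or more (0.625 to 0.845), with intervals that overlapped at their ends. Even the ENR+CD cells without Chgb held Neurog3 at 64.5 CPM (52.1 to 79.0), above its level in the ENR cells without Chgb. In ENR+CV only 14 cells held Chgb after thinning, and 83 of the 86 Neurog3 UMIs and 36 of the 44 Neurod1 UMIs lay in the other 971 cells.

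**Figure D4:**
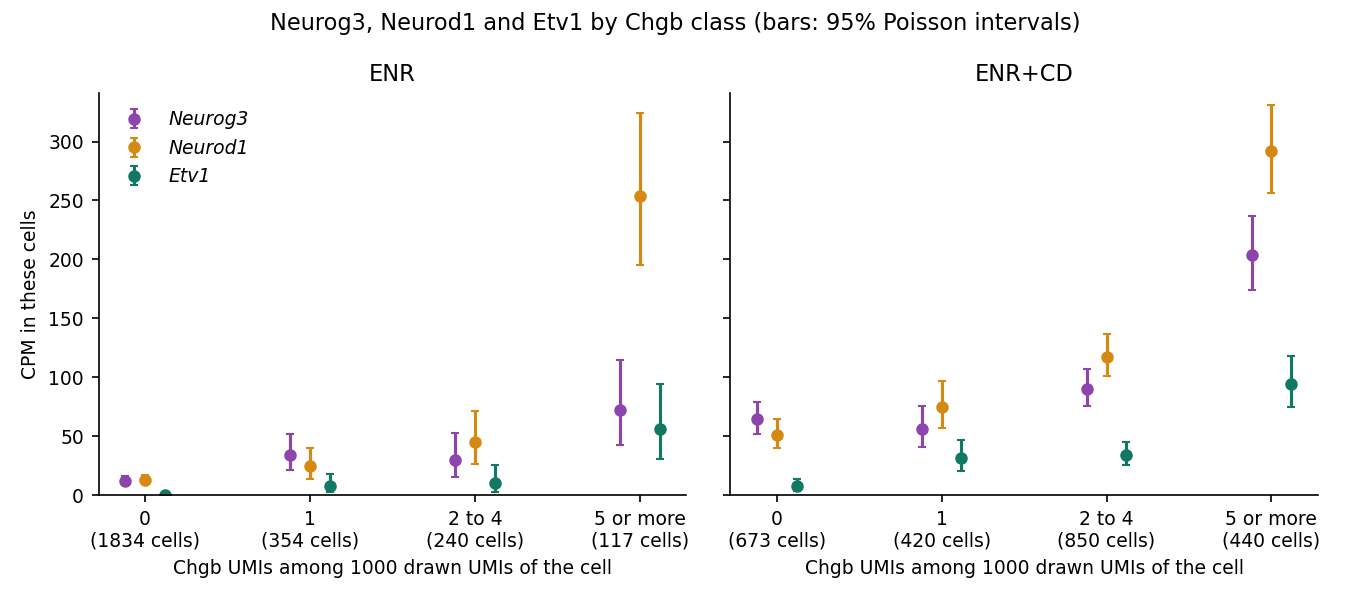
CPM of Neurog3, Neurod1 and Etv1 in cells classed by Chgb UMIs among 1000 drawn UMIs, in ENR (left) and ENR+CD (right), with 95% Poisson intervals. In ENR Neurod1 reaches 254 CPM and Neurog3 72.5 CPM in the highest class, and in ENR+CD they reach 292 and 204 CPM.

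Cells with at least 1 drawn Chgb UMI made up 27.9% of ENR cells and held 25.3% of ENR UMIs, but held 64.7% of the factor UMIs (60.9 to 68.4%). The share ran from 45.5% for Pax4 and 24 of 48 UMIs for Isl1 through 53.1% for Neurog3 (42.7 to 63.2%), 66.0% for Neurod1 (57.7 to 73.6%) and 79.6% for Fev (66.5 to 89.4%) to 95.8% for Etv1 (78.9 to 99.9%). With 2 or more Chgb UMIs, 12.7% of ENR UMIs lay in such cells, and the share was 30.6% for Neurog3 (21.7 to 40.7%), 55.1% for Neurod1 (46.7 to 63.3%), 66.7% for Fev (52.5 to 78.9%) and 18 of 24 UMIs for Etv1 (53.3 to 90.2%). Neurog3 thus lay below Neurod1, Insm1, Rfx6, Fev and Etv1 without overlap at this limit, while Chga, encoding chromogranin A, reached 84.0% and Mki67, a proliferation gene, 11.04%. In ENR+CD, 71.8% of cells held Chgb and 67.9% of all UMIs lay in them, so the 84.3% of factor UMIs there (82.6 to 86.0%) stood less far above the rest. Neurog3 was at 78.7% (74.6 to 82.4%) there, below Neurod1 at 86.4% (83.2 to 89.1%) and Etv1 at 93.3% (88.4 to 96.6%). This did not hold at higher limits. With 2 or more Chgb UMIs Neurog3, at 68.9% (64.4 to 73.2%), overlapped Neurod1 at 76.0% (72.2 to 79.5%) and Etv1 at 78.8% (71.8 to 84.8%). With 5 or more, Neurog3 was at 38.5% (34.0 to 43.3%), level with Fev at 38.5% and above the point values of Insm1, Isl1, Pax4 and Rfx6, 31.1 to 36.3%. In ENR+CV 1.42% of cells held Chgb, with 11.2% of the factor UMIs (7.39 to 16.1%).

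**Figure D5:**
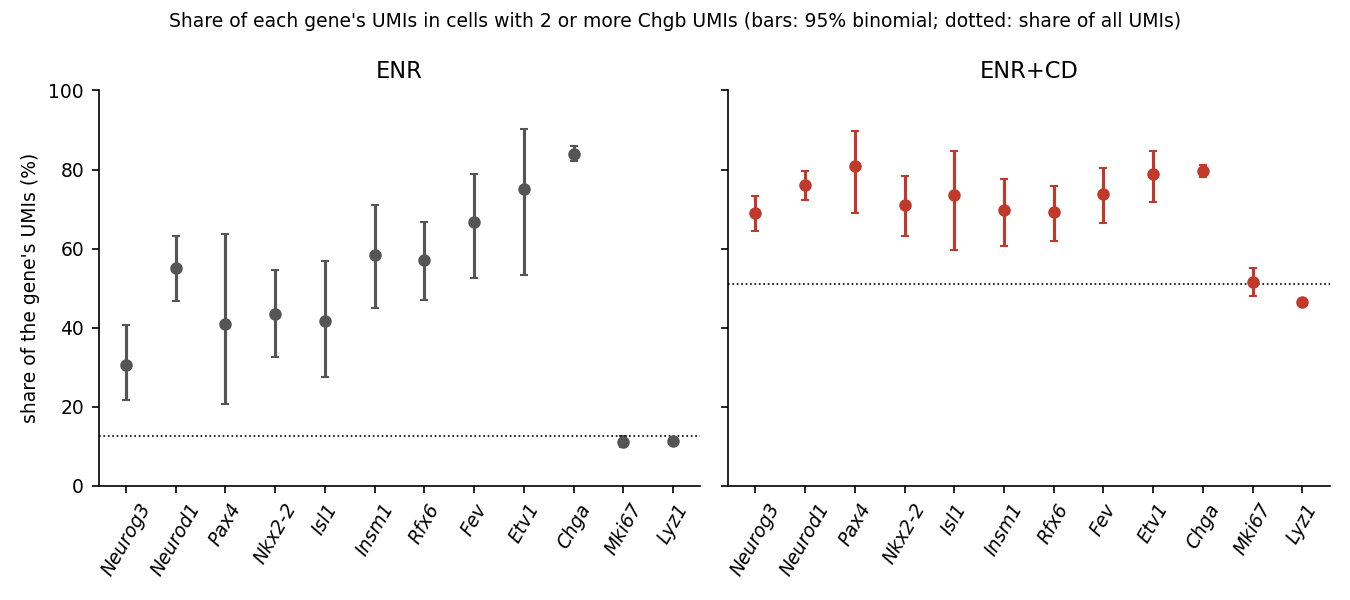
Share of each gene's UMIs that lay in cells with 2 or more Chgb UMIs among 1000 drawn (y axis, percent), in ENR (left) and ENR+CD (right), with 95% binomial intervals; the dotted line is the share of all UMIs in those cells, 12.7% and 51.1%. In ENR Neurog3 lies at 30.6% and Fev at 66.7%, while in ENR+CD the 9 factors lie between 68.9% and 81.0%.

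By summed UMIs, cells with Neurog3 but no Neurod1 UMI carried less Chgb than cells with Neurod1 but no Neurog3. In ENR the former (48 cells) held Chgb at 2736 CPM (2435 to 3064) and the latter (73 cells) at 13572 CPM (13033 to 14128), against 580 CPM in the 2251 cells with no factor. In ENR+CD the levels were 2988 CPM (2813 to 3171) over 189 cells, 7610 CPM (7397 to 7828) over 275 cells and 1850 CPM over 1519 cells. In ENR+CV 7 cells with Neurog3 alone held 0 Chgb UMIs, which allows up to 145 CPM, and 10 cells with Neurod1 alone held 2910 CPM (2346 to 3569). The cells with both factors were at 7468, 8269 and 2868 CPM in ENR, ENR+CD and ENR+CV. In ENR+CV all 54 Chgb UMIs of the 8 cells with both came from 1 cell. The median ENR+CV cell held 0 Chgb UMIs in that group and in the group with Neurod1 alone. In ENR 1 cell held 145 of the 313 Chgb UMIs of the 15 cells with both. Summed Chgb can rest on few cells: the median ENR cell with Neurog3 alone held 0 Chgb UMIs and the median ENR cell with Neurod1 alone held 3. In ENR+CD these medians were 4 and 6, and Chgb was seen after thinning in 80.95% (74.6 to 86.3%) and 85.8% (81.1 to 89.7%) of such cells, shares that overlap.

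Genes that went with each factor were ranked by the ratio of their CPM in cells with a UMI of the factor to that in the other cells of the library, for libraries with at least 30 such cells. With Neurog3 in ENR these were Vim at 13.9 times, Cdkn1c at 13.7, Neurod1 at 11.8, Tac1 at 8.59, Tuba1a at 8.10, Tph1 at 6.58, Pcsk1 at 4.28 and Gip at 4.23, over 63 cells. Chgb itself was at 3.21 times. Vim encodes vimentin, Cdkn1c a cyclin-dependent kinase inhibitor, Tph1 the enzyme of serotonin synthesis and Tac1 substance P. In ENR+CD, over 246 cells, the leading genes were 2010107G23Rik at 4.80 times, which overlaps Neurog3 on the opposite strand as said, Pak3 at 4.36, Gfra3 at 3.90, Syt13 at 2.71, Zg16 at 2.62, Gadd45a at 2.59, Rfx6 at 2.53 and A630023P12Rik at 2.53, with Chgb at 1.48.

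With Neurod1 in ENR, over 88 cells, the genes were Gcg at 31.3 times, Cck at 26.6, Afp at 26.2, Map1b at 25.6, Trpa1 at 25.2, Scg5 at 24.7, Scg2 at 23.4 and Pcsk1 at 20.9, with Chgb at 14.6. In ENR+CD, over 332 cells, the genes were Nts at 13.1 times, Gm5549 at 6.08, Etv1 at 4.80, Scg2 at 4.73, Scg3 at 4.47, Gcg at 4.36, Rab3c at 4.35 and Gfra3 at 4.23, with Chgb at 3.49. Gcg, Cck and Nts encode hormones, and Scg2, Scg3 and Scg5 granule proteins. A few cells weigh on such sums, since 1 ENR cell held 29.6% of all ENR Gcg UMIs.

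With Fev in ENR, over 38 cells, Sct was at 19.7 times, Myl7 at 19.3, Pcsk1 at 18.6, Cck at 18.3, Tac1 at 17.7, Vim at 17.7, Cdkn1c at 14.9 and Tph1 at 14.6. In ENR+CD, over 124 cells, Tph1 was at 7.78 times, Tac1 at 5.22, Neurog3 at 5.11, Pak3 at 5.01, 2010107G23Rik at 3.86, Rab3c at 3.72, Nkx2-2 at 3.70 and Runx1t1 at 3.67. Of the 121 Neurog3 UMIs in these cells, 32 came from 1 cell. Before thinning, Neurog3 was in 16.9% of ENR+CD cells with Fev (10.8 to 24.7%) and 9.96% of the others. Etv1 had enough cells only in ENR+CD (122), where the genes were Nts at 32.4 times, Cd177 at 9.64, Gnai1 at 7.25, Scg2 at 7.15, Gcg at 6.51, Rbp4 at 6.34, Cck at 5.62 and Ghrl at 4.999. Of the ENR+CD UMIs of Nts, 149 of 214 lay in cells with Etv1, but 133 of the 214 came from a single cell, which held Etv1 and Neurod1 as well, so the Nts ratios of both factors rest largely on it.

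Cells with a factor were checked against 10 marker lists. The EEC list holds Chgb and 8 other EEC genes, Tph1 among them, and none of the factors. In ENR it took 0.929% of UMIs in cells with any factor and 0.0810% in the others, with all 9 of 9 markers detected in both. In ENR+CD these shares were 0.756% and 0.274%, and in ENR+CV 0.236% and 0.00513%. In single cells with a factor the share ran from 0 to 10.8% in ENR, from 0 to 8.77% in ENR+CD and from 0 to 5.47% in ENR+CV. PC markers, 11 of 11 detected, took 12.4% of UMIs in ENR+CD cells with a factor (0.166 to 60.5% in single cells) and 15.6% in the others, while in ENR+CV they took 2.06% (0 to 46.4% in single cells) and 0.477%. The ENR+CV value rests on few cells, with medians of 0.145% and 0.0997% per cell. The part of PC markers in the factor values was not tested. Immune markers, 4 of 5 in the table, gave 0 UMIs in the ENR cells with a factor, 18 in those of ENR+CD and 1 in those of ENR+CV, and markers of stroma, endothelium, neurons and glia gave 0 to 9 UMIs per list in cells with a factor.

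Levels in cells rich in markers of other lineages were compared too. In ENR+CD the 197 cells with at least 30% of their UMIs on PC markers, a limit near which 288 cells lie, held Neurog3 at 51.2 CPM (32.4 to 76.8), Neurod1 at 40.0 CPM (23.7 to 63.3), Fev at 8.90 CPM (2.43 to 22.8) and Etv1 at 4.45 CPM (0.539 to 16.1). All 4 lay below the library's levels without overlap. By share of thinned cells, Neurod1 was in 3.55% of the PC-rich cells (1.44 to 7.18%) against 9.06% of all cells. PC markers took 14.3% of UMIs in the whole ENR+CD library. A cut at 30% therefore by itself lowers the CPM and thinned shares of other genes. Its part in these lower values was not tested. Chgb was in 40.6% of the PC-rich cells (33.7 to 47.8%) against 71.8% of all ENR+CD cells, so it was also seen in cells rich in PC markers. Whether those cells with Chgb were EECs was not tested. In ENR the 146 cells with at least 1% of UMIs on enterocyte markers, a limit near which 106 cells lie, held Neurog3 at 26.5 CPM (11.5 to 52.3), not below the library's 19.2 CPM. Rfx6 was at 26.5 CPM (11.5 to 52.3) against 20.6. Etv1 was at 19.9 CPM (7.31 to 43.3), from 6 UMIs, above its library level of 4.71 CPM (3.02 to 7.01) without overlap. No ENR cell with Etv1 held more than 1.16% of its UMIs on enterocyte markers, so those counted here lay just past the limit. The cut does not exclude EECs, and whether these Etv1 UMIs came from enterocytes was not tested. These cells held Chgb in 23.3% of cells (16.7 to 31.0%) against 27.9% of all.

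The reads behind the UMIs gave a further check. In ENR Neurog3 had 23.0 reads per UMI, while ENR+CD had 33.3 and ENR+CV 10.3, where the libraries as a whole had 15.3, 18.3 and 10.2. Of the cells with Neurog3, 14.3%, 10.6% and 40.0% rested on a single read, and of those with Etv1 1 of 13 cells, 17 of 122 and 3 of 6. For Chgb the single-read share was 11.98%, 4.45% and 69.0%, so most ENR+CV cells listed with Chgb (20 of 29) rest on 1 read.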

How the data were processed

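The authors pooled wells, captured cells on Seq-Well arrays, aligned reads to mm10 with a Drop-seq workflow and collapsed UMIs; the submitters' processing notes name bcl2fastq, STAR and Seurat without versions. The deposited values are raw UMI counts per gene and cell, in a merged table of cells above 1000 UMIs and in per-library tables of UMI counts and read counts, which are not normalized. Counts were taken from the merged table, with columns assigned to samples by source name. Cells with 8000 or more UMIs or under 400 genes were left out, which kept 96.0%, 95.1% and 90.2% of cells in ENR, ENR+CD and ENR+CV. No doublet caller was run.

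UMIs were summed per library with Python 3.11.15, NumPy 2.4.6 and SciPy 1.17.1. Cells are not replicates, so no test between conditions was run, and intervals (exact Poisson for levels, exact binomial for ratios, Clopper-Pearson for shares, all 95%) cover counting error only. A count of 0 allows up to 3 counts, or 0.589, 0.661 and 1.02 CPM in ENR, ENR+CD and ENR+CV. For shares and Chgb classes each cell was thinned at random to 1000 UMIs. The text names the 9 factors, Chgb, up to 4 genes of each list, those of highest summed UMIs, and the 8 genes most like Neurog3, Neurod1, Fev and Etv1 (at least 30 UMIs in at least 30 positive cells); single genes beyond these, such as Chga, Mki67 and the overlapping genes, were chosen as reference genes or after their values were seen. Enterocyte-rich and Paneth-rich cells were cut at 1% and 30% of UMIs after the data were seen. The members and lists were chosen with earlier results of these data known. Alternatives were other cell limits, scalings, fold limits, thinnings and Chgb definitions.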

Additional observations from a re-analysis of the deposited data

Results flagged for a closer look

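Factor signal was present in barcodes that the comparisons left out. Barcodes under 1000 UMIs held the 9 factors at 130 CPM (115 to 146) over 3345 ENR barcodes, at 425 CPM (402 to 449) over 5493 ENR+CD barcodes and at 30.9 CPM (21.5 to 43.0) over 3907 ENR+CV barcodes. The kept cells stood at 126, 415 and 75.8 CPM, with intervals that overlap for the sum of the 9 in ENR and ENR+CD, while ENR+CV lay lower in its shallow barcodes. Single factors differed: in ENR, Neurog3 was at 35.1 CPM (27.7 to 43.9) in shallow barcodes against 19.2 CPM (15.6 to 23.4) in kept cells, with 77 UMIs beside 74 of Neurod1. In the shallow barcodes of ENR+CV, Neurog3 was at 6.18 CPM (2.49 to 12.7), below ENR rather than above it. Chgb stood at 1253, 3087 and 30.9 CPM in the shallow barcodes of ENR, ENR+CD and ENR+CV. The kept cells had it at 1344, 3158 and 81.2 CPM. Cells of 8000 or more UMIs held them at 29.6 CPM (20.1 to 42.0) over 82 ENR cells, at 192 CPM (167 to 221) over 77 ENR+CD cells and at 37.0 CPM (26.7 to 49.99) over 101 ENR+CV cells, below the kept cells in every library. In ENR, 25 of the 31 factor UMIs in these deep cells were Neurog3, against 2 of Neurod1, and Chgb stood at 35.3 CPM (24.9 to 48.7) there.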

How the results depend on the processing

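The 7 factors called higher in ENR+CD against ENR numbered 6 to 8 under the alternatives, Nkx2-2 and Rfx6 being the ones that crossed the limit, and the 8 called against ENR+CV numbered 8 or 9, with Isl1 in place of Insm1 when cells of 2000 UMIs or more were left out. The 3 called lower in ENR+CV against ENR became 5 when centred on the median gene, and numbered 2 to 4 otherwise, Rfx6 being in each set. Of 237 single ratios under alternatives, 228 stayed within their interval, 9 moved and 0 reversed, and of 108 Chgb shares of single factors 40 moved. Of the values that answer a comparison, 16 moved under an alternative and 77 did not. With cells of 2000 UMIs or more left out, Pax4, Isl1 and Etv1 were at 0 UMIs in ENR+CV and gave no ratio. The share of cells with a factor without thinning was 11.6% for ENR, while ENR+CD had 36.3% and ENR+CV 4.67%, and 4.75% and 14.8% in ENR and ENR+CD thinned to 500 UMIs, fewer UMIs giving fewer positive cells. Neurog3 per Neurod1 in ENR+CV fell to 0.833 with 1 UMI counted per cell, by construction without the cells' own amounts. The share of factor UMIs in cells with Chgb, 64.7% in ENR and 84.3% in ENR+CD, was 69.3% and 92.9% with Chgb among all UMIs, 50.7% and 73.1% with 2 or more Chgb UMIs, 36.8% and 53.1% with Chga (6.73% in ENR+CV), and 56.5% and 82.0% with no upper limit of UMIs; the cause of the last was not tested. Leaving out the richest cell of each factor was chosen after seeing the data. No paired analysis was possible because each condition is 1 library, and for the same reason no replicate could be left out.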
